A study of Rattus norvegicus with 18 samples.

Results

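The miR-23, miR-27 and miR-24 family of mature microRNAs (miRNAs) was followed across rat liver libraries. Its main arms were taken by row name, rno-miR-23a-3p, rno-miR-23b-3p, rno-miR-27a-3p, rno-miR-27b-3p and rno-miR-24-3p (rno, the rat prefix, is dropped below), which gave 5 of the 401 miRNA rows in the deposited table and 5 of the 112 rows with enough counts to be tested. Small RNA was counted in 18 liver libraries, 6 from obese Zucker diabetic fatty (ZDF) rats given colesevelam, 6 from obese ZDF rats given vehicle and 6 from lean rats. All were labelled as 8 weeks old and of the strain ZDF-Leprfa/Crl, the lean rats included. What sets the lean group apart in the labels is its title and the phenotype Lean, and no agent is given for it. ZDF rats carry a leptin receptor that does not work and become obese and diabetic, and colesevelam is a resin that holds bile acids in the gut. The stated question was the effect of colesevelam on liver miRNAs relative to vehicle, and lean livers serve as a second point of comparison.

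MiRNAs of this family come from a pair of gene clusters, each of which holds a miR-23, a miR-27 and a miR-24 hairpin made as one transcript. A mature miRNA guides the Argonaute protein to messenger RNAs through its seed, so paralogs with the same seed are read as having largely the same targets. miR-27 is known for restraining fat cell formation and for targeting lipid genes in liver cells, miR-23 for repressing glutaminase in human cells, and miR-24 for targeting cell cycle genes in human cells. Both clusters are also known from blood vessel cells, where they act in vessel growth.

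The mature sequences are shown because the seeds set the families apart while the paralogs are nearly the same molecule. They are RefSeq's, on the rat build GRCr8, with bases 2 to 8, the seed, in capitals.
miR-23a-3p: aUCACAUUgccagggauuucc
miR-23b-3p: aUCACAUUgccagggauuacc
miR-27a-3p: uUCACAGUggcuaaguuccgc
miR-27b-3p: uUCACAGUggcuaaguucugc
miR-24-3p: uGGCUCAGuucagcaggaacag
The miR-23 paralogs differ at 1 base, U19A from miR-23a-3p to miR-23b-3p, and the miR-27 paralogs at 1 base, C19U from miR-27a-3p to miR-27b-3p, counted from 1 at the 5′ end. The first 18 bases of each pair are therefore identical. No other row of the table carried any of these seeds. In GRCr8 the b cluster (Mir23b, Mir27b and Mir24-1) spans 814 bases of the minus strand at chr17:1818669-1819482, inside the annotated span of Aopep, an aminopeptidase gene, and its edge overlaps the end of the annotated span of Fancc, a DNA repair gene. The a cluster (Mir23a, Mir27a and Mir24-2) spans 389 bases of the minus strand at chr19:40859455-40859843, between genes, with the annotated span of Zswim4 ending 1713 bases below it in coordinate. miR-24-3p has the same 22 bases in both clusters, so its row cannot be divided between them by the main arm.

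The near identity of the paralogs is visible in the counts. Values that were not whole occurred for the miR-23 pair in 6 of 18 libraries and for the miR-27 pair in 10 of 18. In every one of those libraries both paralogs of the pair carried the same fraction. How reads that match both paralogs were divided is not given in the sources used here, so the level of the scarcer paralog of each pair is uncertain.

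Libraries held 32936 to 122881 counts in the colesevelam group, 37910 to 147313 in the vehicle group and 110352 to 881452 in the lean group. In the table's library names 5 label numbers stand on 2 libraries each, 10 libraries in all, and nothing in the labels says whether such a number is an animal or whether libraries are separate animals, so the p-values given here cover library-to-library spread only, some of which may be technical. The hepatocyte list (6 of 7 names in the table, miR-122-5p and miR-192-5p among them) summed to 264445 to 496009 CPM in colesevelam, 213323 to 353408 CPM in vehicle and 286635 to 482529 CPM in lean libraries, so the defining liver miRNAs were present in all. CPM are counts put on the same library total after TMM scaling, which takes most miRNAs as alike between libraries. In bulk liver, fewer cells of a type and less RNA per cell cannot be told apart.

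miR-27b-3p was by far the most abundant member and ranked 15 of all rows in colesevelam, 15 in vehicle and 13 in lean libraries. It held 1.99% of all counts summed over libraries, and the 5 members together held 2.28%, sums in which the deeper lean libraries weigh most. Averaged within groups, miR-27b-3p held 1.43% in colesevelam, 1.69% in vehicle and 2.00% in lean libraries. The 5 members together held 1.81%, 2.08% and 2.29% in the same order. miR-23b-3p came next, at ranks 31, 34 and 37 in colesevelam, vehicle and lean libraries. miR-23a-3p, miR-27a-3p and miR-24-3p lay near one another far below these, at 294 to 506 CPM on average, and their order was not the same in the 3 groups. The mature forms are 21 or 22 bases long, so these levels per molecule need no further scaling for length, although ligation and amplification can differ between sequences.

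**Figure D1:**
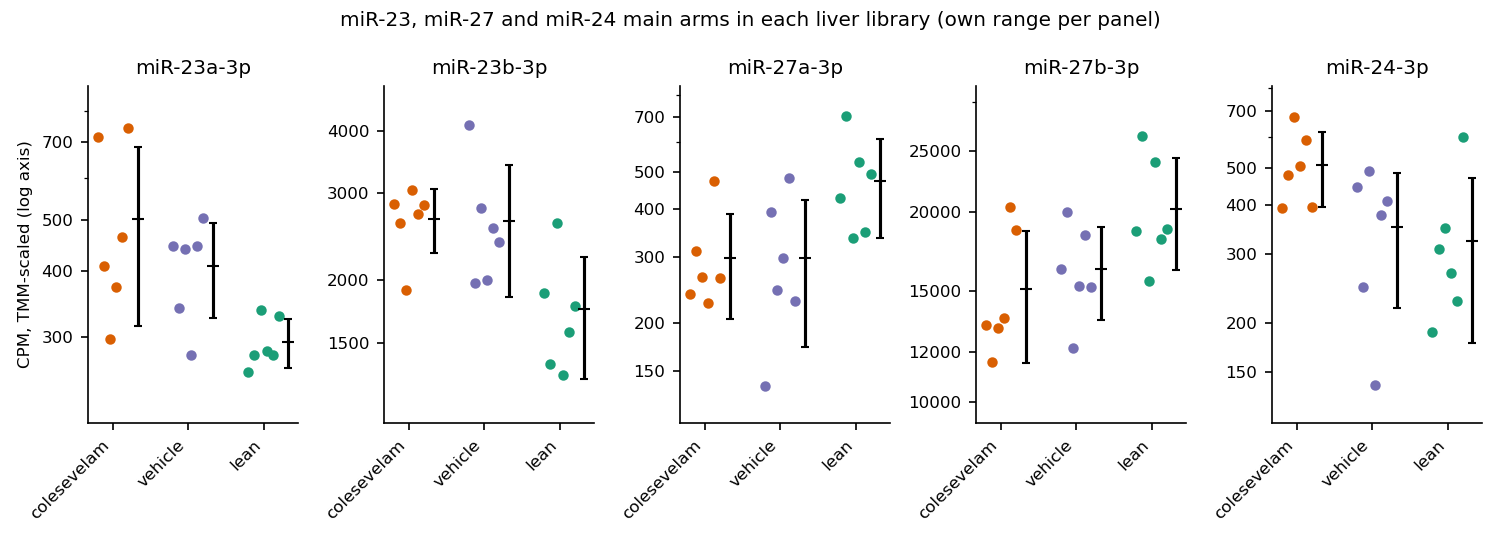
Level of each member in every library, in CPM on a log axis with its own range in each panel, for colesevelam, vehicle and lean libraries from left to right (6 each). Points are libraries, and the bar beside them is the mean with its SD; both miR-23 panels sit highest in the obese groups, both miR-27 panels sit highest in the lean group, and the groups overlap in each of the 5 panels.

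Colesevelam against lean gave the only called members, both of them miR-23 forms. miR-23a-3p and miR-23b-3p were higher in colesevelam than in lean libraries, by 1.69-fold and 1.52-fold. Both miR-27 forms had lower means in colesevelam libraries and miR-24-3p a higher one, none of these 3 past the threshold. The 2 groups differ in obesity and in the drug given, which this comparison cannot tell apart. In vehicle against lean miR-23a-3p and miR-23b-3p had log2 fold changes of 0.48 and 0.59, and in colesevelam against vehicle 0.28 and 0.01. Neither was called in those comparisons. Calls are an adjusted p under 0.05 in edgeR's quasi-likelihood test, adjusted by Benjamini-Hochberg over all 112 rows. By that rule 2 of the 5 members were called, both higher, against 21.4% of all rows tested in either direction and 11.6% higher. Colesevelam and lean libraries overlapped for all 5 members, while 8.04% of the rows tested did not overlap. All 5 had an unadjusted p under 0.05, as did 44 of the 112 rows. The median log2 fold change was 0.60 over the members and −0.08 over all rows tested.

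For miR-23a-3p the lowest, median and highest colesevelam libraries had 298, 436 and 745 CPM, against 259, 281 and 338 CPM in lean libraries. Every colesevelam library lay above the lean median, though the groups overlapped. The log2 fold change was 0.76 ± 0.25 (SE; edgeR's quasi-likelihood test, adjusted p = 0.0321). miR-23b-3p, the more abundant paralog, had 1912, 2778 and 3037 CPM as lowest, median and highest colesevelam libraries, against 1292, 1673 and 2608 CPM in lean libraries. Again all 6 colesevelam libraries lay above the lean median and the groups overlapped, because lean 3 stood at 2608 CPM, well above the other lean libraries. Its log2 fold change was 0.60 ± 0.21 (edgeR's quasi-likelihood test, adjusted p = 0.0380).

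The miR-23 calls depended on single libraries and settings. The miR-23a-3p call was lost without colesevelam 1, colesevelam 6, lean 1, lean 2, lean 4 or lean 5, and the miR-23b-3p call without colesevelam 5, lean 1, lean 2, lean 4 or lean 5, one left out at a time. Over all such fits the adjusted p of edgeR's test ran from 0.0215 to 0.0700 for miR-23a-3p (log2 fold change 0.63 to 0.85) and from 0.00869 to 0.0880 for miR-23b-3p (0.50 to 0.76). Both were also lost with library totals as the only scaling, with no filter on low counts, with only the 2 groups in the fit, with libraries of one label number summed and with the paralogs summed (adjusted p 0.0534 to 0.202 in edgeR's test). The miR-23a-3p call alone was lost with the replicate block, and the miR-23b-3p call alone with upper-quartile factors and with miR-192-5p left out of the scaling.

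miR-27a-3p had 226, 265 and 474 CPM as lowest, median and highest colesevelam libraries, against 335, 461 and 704 CPM in lean libraries. Only colesevelam 5 lay above the lean median, and the groups overlapped. The log2 fold change was −0.66 ± 0.29 (edgeR's quasi-likelihood test, adjusted p = 0.0978). miR-27b-3p, the abundant paralog, had 11561, 13409 and 20375 CPM in colesevelam libraries, against 15561, 18725 and 26469 CPM in lean libraries. It too had 1 colesevelam library above the lean median in overlapping groups, with a log2 fold change of −0.43 ± 0.19 (edgeR's quasi-likelihood test, adjusted p = 0.102). With library totals as the only scaling both miR-27 forms were called lower (adjusted p = 0.0450 for miR-27a-3p and 0.0197 for miR-27b-3p in edgeR's test). miR-27b-3p was also called lower by DESeq2 (adjusted p = 0.0382). Without colesevelam 5 both were called lower, at log2 fold changes of −0.86 for miR-27a-3p and −0.53 for miR-27b-3p, each with an adjusted p of 0.0445 in edgeR's test.

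miR-24-3p had 393, 493 and 674 CPM as lowest, median and highest colesevelam libraries, against 190, 289 and 599 CPM in lean libraries. Every colesevelam library lay above the lean median, and lean 6 alone held the high lean value. The log2 fold change was 0.65 ± 0.30 (edgeR's quasi-likelihood test, adjusted p = 0.106). Without lean 6 it was 0.91 with an adjusted p of 0.0169.

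Depth and the 2 deepest libraries moved with these differences. Lean 2 and lean 4, with 881452 and 458609 counts, had the highest miR-27a-3p and miR-27b-3p levels and the lowest miR-23b-3p levels of the lean group. Without both, an alternative chosen after the data were seen, the colesevelam against lean log2 fold change was 0.67 for miR-23a-3p, 0.39 for miR-23b-3p, −0.47 for miR-27a-3p, −0.29 for miR-27b-3p and 0.50 for miR-24-3p. All 5 kept their sign, and none passed the threshold (lowest adjusted p 0.125 in edgeR's test, for miR-23a-3p). Apart from this, the part of depth in the differences was not tested. The slope of level on GC content within a library overlapped between groups, at −0.104 to −0.0441 log2 units per percent in colesevelam, −0.0977 to −0.0209 in vehicle and −0.104 to −0.0456 in lean libraries. Within the lean group lean 2, lean 4 and lean 6 had slopes of −0.0914, −0.104 and −0.0995, while lean 1, lean 3 and lean 5 had −0.0456, −0.0549 and −0.0498. Lean 2, lean 4 and lean 6 were also the 3 highest lean libraries for miR-27a-3p, at 704, 533 and 496 CPM, and for miR-27b-3p, where lean 6 (18796 CPM) was close to lean 1 (18655 CPM). The members have a GC content of 47.6% to 54.5%, and with a GC trend taken out the colesevelam against lean values were 0.75, 0.60, −0.66, −0.43 and 0.64 in the order given above.

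**Figure D2:**
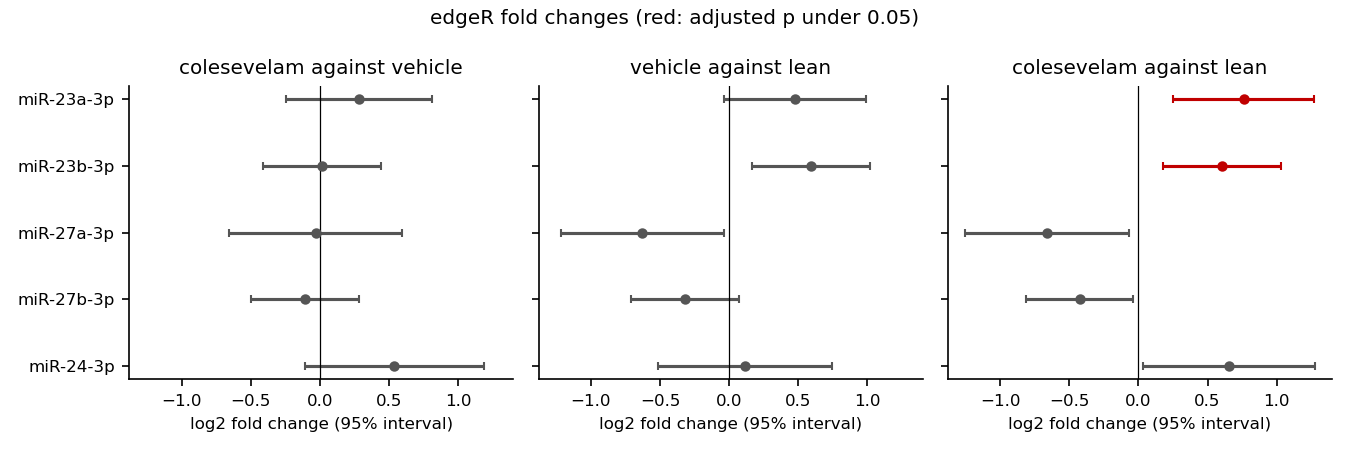
Log2 fold change of each member with its 95% interval from the edgeR fit over 18 libraries, one panel for each comparison. Red marks an adjusted p under 0.05, which miR-23a-3p (0.76) and miR-23b-3p (0.60) reached in colesevelam against lean; the intervals of colesevelam against vehicle all include 0.

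Vehicle against lean gave no called member. The members' log2 fold changes were 0.48 ± 0.25 for miR-23a-3p, 0.59 ± 0.21 for miR-23b-3p, −0.63 ± 0.28 for miR-27a-3p, −0.32 ± 0.19 for miR-27b-3p and 0.12 ± 0.30 for miR-24-3p. None of the 5 was called, against 6.25% of all rows, and none was without overlap, against 2.68% (edgeR's quasi-likelihood test, adjusted p 0.110 to 0.914), and 2, miR-23b-3p and miR-27a-3p, had an unadjusted p under 0.05, as did 21 of the 112 rows. Without lean 3, the lean library with the most miR-23b-3p, that miRNA was called higher in vehicle libraries (log2 fold change 0.75, adjusted p = 0.0187). Vehicle and colesevelam libraries were set against the same 6 lean libraries, so the values of the 2 comparisons are not independent. DESeq2 and limma-voom called no member in this comparison either.

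miR-23b-3p had 1974, 2469 and 4096 CPM as lowest, median and highest vehicle libraries, against 1292, 1673 and 2608 CPM in lean libraries. All 6 vehicle libraries exceeded the lean median, and vehicle 1 stood far above the others. miR-23a-3p had 278, 443 and 504 CPM in vehicle libraries, against 259, 281 and 338 CPM in lean libraries, and 5 of 6 vehicle libraries exceeded the lean median. miR-27a-3p had 137, 271 and 484 CPM in vehicle libraries, against 335, 461 and 704 CPM in lean libraries, with 5 of 6 vehicle libraries below the lean median. That low value of 137 CPM was again vehicle 1. miR-27b-3p had 12167, 15781 and 20014 CPM in vehicle libraries, against 15561, 18725 and 26469 CPM in lean libraries. Here too 5 of 6 lay below the lean median, and the groups overlapped. miR-24-3p had 139, 394 and 490 CPM in vehicle libraries, against 190, 289 and 599 CPM in lean libraries, which overlapped widely.

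Colesevelam against vehicle, the comparison of the stated question, gave no called member, against 10.7% of all rows tested, and no member without overlap, against 5.36%. The log2 fold changes were 0.01 ± 0.21 for miR-23b-3p, −0.03 ± 0.30 for miR-27a-3p and −0.11 ± 0.19 for miR-27b-3p. Their 95% intervals were −0.41 to 0.44, −0.65 to 0.59 and −0.50 to 0.29, so changes within these bounds could not be told from no change. miR-23a-3p had 0.28 ± 0.25, with mean levels of 501 ± 186 CPM in colesevelam and 409 ± 83.3 CPM in vehicle libraries (SD, n = 6 each). miR-24-3p lay furthest from 0, at 0.54 ± 0.31 (95% interval −0.11 to 1.19; edgeR's quasi-likelihood test, adjusted p = 0.378). Its colesevelam libraries had 393, 493 and 674 CPM as lowest, median and highest, against 139, 394 and 490 CPM in vehicle libraries. Of the colesevelam libraries 5 of 6 lay above the vehicle median, and the groups overlapped. None of the 5 had an unadjusted p under 0.05 in edgeR's test, and DESeq2 and limma-voom called none of them.

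Ratios of 2 members inside one library do not depend on how libraries are scaled to one another, and cluster mates from the same transcript can be compared in this way. The mean miR-23 to miR-27 ratio was higher in both obese groups than in lean libraries, in both clusters, though not past the threshold after adjustment. The ratios were log2((x + 0.5)/(y + 0.5)) of the counts, and 8 ratios in 3 comparisons gave 24 two-sided exact permutation tests. None passed a Benjamini-Hochberg adjusted p of 0.05, and the smallest adjusted value was 0.0519. The smallest p that 6 libraries against 6 can give is 0.00216, which for a single ratio becomes 0.0519 after adjustment over the 24 tests. A ratio could thus not pass on its own, even without any overlap, so missing the threshold is no sign of a small difference.

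In the b cluster, miR-23b-3p stood to miR-27b-3p at 0.134, 0.184 and 0.227 counts to 1 in the lowest, median and highest colesevelam libraries, 0.0991, 0.148 and 0.252 in vehicle libraries, and 0.0513, 0.0906 and 0.168 in lean libraries. Lean 3 was the only lean library inside the colesevelam range, lean 1 lay just above the lowest vehicle library, and lean 2 and lean 4 were the lowest of all. The log2 ratio was higher by 1.07 ± 0.30 in colesevelam than in lean libraries (exact permutation p = 0.00866, adjusted 0.0649) and by 0.90 ± 0.33 in vehicle than in lean libraries (exact permutation p = 0.0303, adjusted 0.121). Colesevelam and vehicle libraries differed by 0.16 ± 0.25 (exact permutation p = 0.569, adjusted 0.683).

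In the a cluster, miR-23a-3p stood to miR-27a-3p at 0.979, 1.46 and 2.89 counts to 1 in colesevelam libraries, 0.872, 1.35 and 3.08 in vehicle libraries, and 0.396, 0.637 and 1.01 in lean libraries. Lean 3 was again the only lean library to reach the obese range. The log2 ratio was higher by 1.34 ± 0.33 in colesevelam than in lean libraries (exact permutation p = 0.00433, adjusted 0.0519) and by 1.17 ± 0.37 in vehicle than in lean libraries (exact permutation p = 0.0108, adjusted 0.0649). The a and b ratios are not independent of each other, since reads may have been divided between the paralogs of each pair.

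miR-24-3p stood to miR-27a-3p at 1.24, 1.57 and 2.51 counts to 1 in the lowest, median and highest colesevelam libraries, against 0.441, 0.582 and 1.21 in lean libraries. This was the 1 ratio of the 24 whose groups did not overlap, and the difference of log2 ratios was 1.37 ± 0.30 (exact permutation p = 0.00216, adjusted 0.0519). Against miR-27b-3p it was 1.17 ± 0.33 (exact permutation p = 0.0152, adjusted 0.0727). Against the miR-23 forms the differences of miR-24-3p between colesevelam and lean libraries were 0.02 ± 0.37 for miR-23a-3p and 0.10 ± 0.32 for miR-23b-3p (SE; exact permutation p = 0.952 and 0.755, adjusted 0.952 and 0.788).

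The share of each paralog in its pair was similar in the 3 group means. miR-23a-3p made up 15.6 ± 3.96% of the miR-23 counts in colesevelam, 13.8 ± 2.59% in vehicle and 14.9 ± 2.63% in lean libraries (SD, n = 6 each). miR-27a-3p made up 1.95 ± 0.446% of the miR-27 counts in colesevelam, 1.78 ± 0.581% in vehicle and 2.26 ± 0.277% in lean libraries. The groups overlapped for both shares, and no paralog ratio passed the threshold in any comparison (exact permutation, lowest adjusted p 0.289).

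Leaving out lean 3, or adding 5 counts in place of 0.5, put 5 ratios past the threshold. Without lean 3 these were both cluster-mate ratios in both comparisons with lean libraries and miR-24-3p to miR-27a-3p in colesevelam against lean. Their differences were 1.099 or more on the log2 scale (exact permutation, adjusted p 0.0260 to 0.0416). The 5 added counts weigh more in the shallower obese libraries. There miR-27a-3p had 8.5 to 47.5 counts (colesevelam) and 5.5 to 74.5 (vehicle), against 49.5 to 538 in lean libraries. The part of depth in the calls with 5 counts added was not tested. Without lean 2 and lean 4 the colesevelam against lean difference was 1.104 for miR-23a-3p to miR-27a-3p and 0.72 for miR-23b-3p to miR-27b-3p. For miR-24-3p to miR-27a-3p it was 1.13. The lowest adjusted p was then 0.229 (exact permutation). With 4 lean libraries left there are too few splits for a single ratio to pass on its own, even without any overlap. Missing the threshold here is therefore no sign that a difference was lost.

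**Figure D3:**
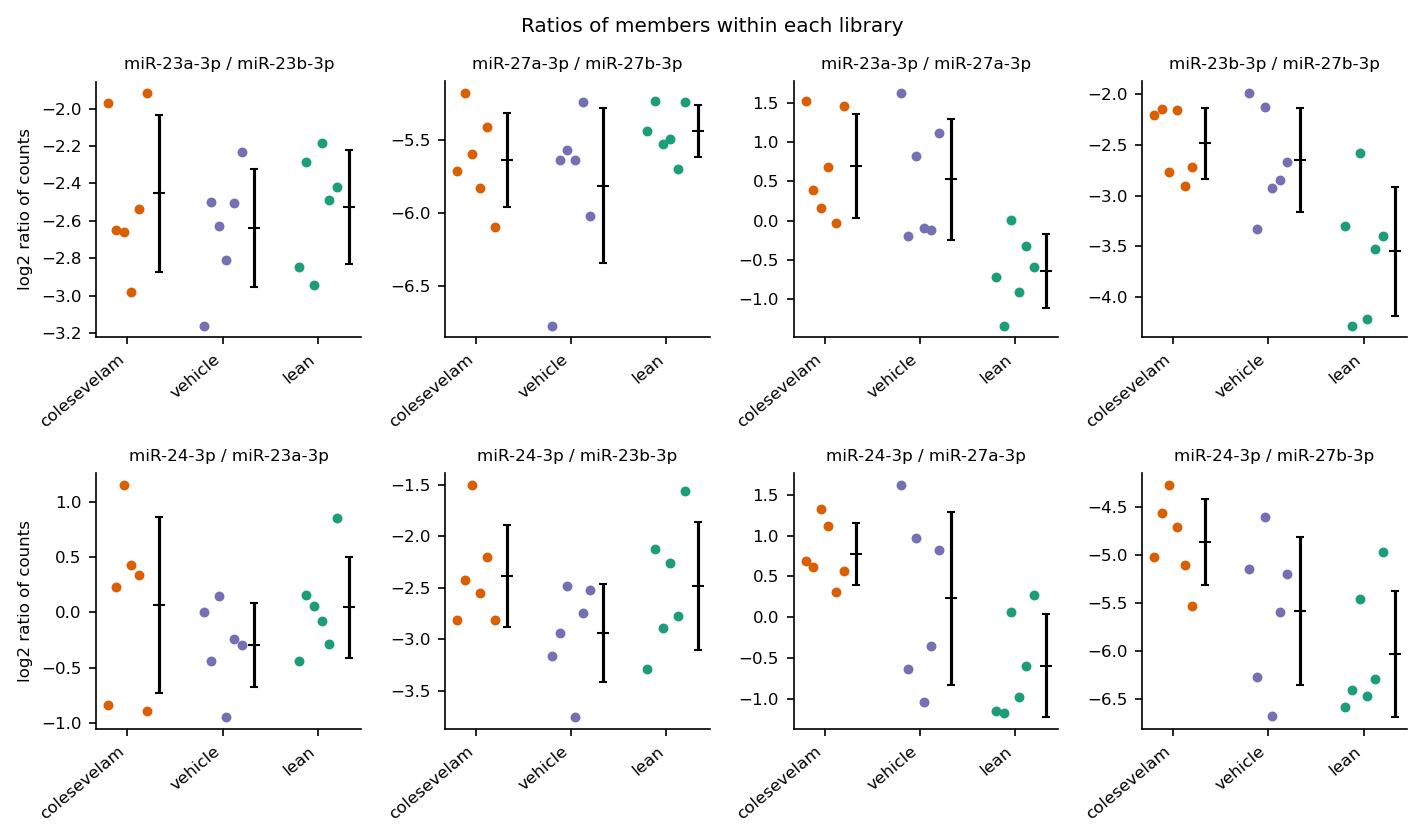
Log2 ratio of 2 members' counts within each library, 8 ratios, with colesevelam, vehicle and lean libraries from left to right and the mean with its SD beside the points. The paralog ratios in the first 2 panels overlap throughout, both miR-23 to miR-27 ratios lie lower in lean libraries, and miR-24-3p to miR-27a-3p is the ratio without overlap between colesevelam (lowest 0.31) and lean libraries (highest 0.27).

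Over the 18 libraries members of one seed went together more than members of one cluster. As a description, on log2(CPM + 1), Pearson's r was 0.70 between miR-23a-3p and miR-23b-3p (Spearman's rho 0.76) and 0.71 between miR-27a-3p and miR-27b-3p (rho 0.73). It was −0.58 between the cluster mates miR-23b-3p and miR-27b-3p (rho −0.50) and −0.47 between miR-23a-3p and miR-27a-3p (rho −0.50). With group means taken away, these values were 0.49, 0.60, −0.34 and −0.18. Without the 2 libraries farthest from the median of the first-named miRNA, they were 0.76 for the miR-23 pair, 0.78 for the miR-27 pair and −0.29 for miR-23b-3p with miR-27b-3p, so the last rests largely on lean 2 and lean 4. Points of one library share its depth and scaling, and reads divided between paralogs would tie their rows together.

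The tested miRNAs most alike each member were named by the highest Pearson's r over the same 18 libraries. For miR-27a-3p this was miR-142-5p (r = 0.90, rho 0.95; 0.84 with group means taken away), and the same miRNA led for miR-27b-3p (r = 0.77). For miR-23b-3p it was miR-378a-3p (r = 0.82, rho 0.86), which also led for miR-23a-3p (r = 0.67). miR-24-3p had no close companion, the nearest being miR-146b-5p (r = 0.60). With group means taken away miR-142-5p still led for miR-27a-3p, while another miRNA led for each of the other 4 members. These were miR-143-3p for miR-27b-3p (r = 0.80), miR-125a-5p for miR-23b-3p (r = 0.73), miR-151-5p for miR-23a-3p (r = 0.62) and miR-145-5p for miR-24-3p (r = 0.55). Of the 3 nearest miRNAs by each measure, 0 were shared for miR-23a-3p and miR-24-3p and 1 for each of the others. miR-142-5p had 393, 585 and 1188 CPM in the lowest, median and highest colesevelam libraries, 367, 566 and 969 CPM in vehicle libraries, and 693, 1181 and 2598 CPM in lean libraries. Its levels were thus highest in lean libraries, as for miR-27a-3p, and the groups overlapped. Next in order were miR-101a-3p and miR-101b-3p for miR-27a-3p, miR-126a-5p and miR-148a-3p for miR-27b-3p, and miR-378b and miR-103-3p for miR-23b-3p (r 0.70 to 0.79).

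**Figure D4:**
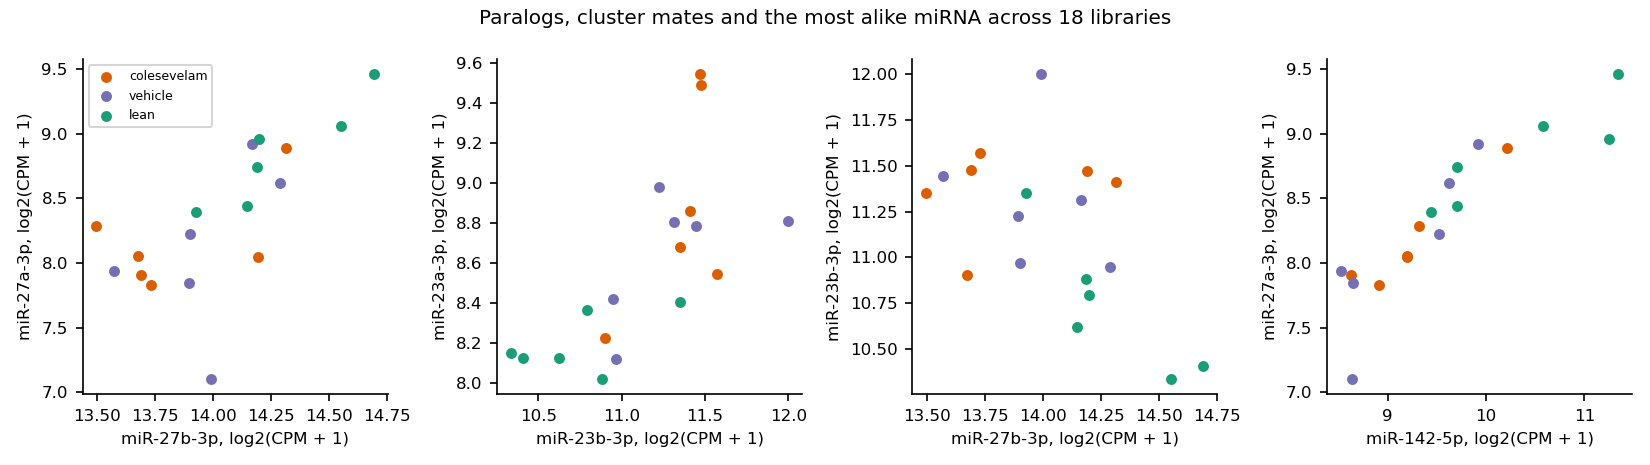
Log2(CPM + 1) of pairs of miRNAs over the 18 libraries, colored by group. From left to right the panels show the miR-27 paralogs (r = 0.71), the miR-23 paralogs (r = 0.70), the b cluster mates miR-23b-3p and miR-27b-3p (r = −0.58) and miR-27a-3p with miR-142-5p (r = 0.90).

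miR-142 is known as a miRNA of blood cells, so the whole leukocyte list was read beside the miR-27 values. All 6 of its names were in the table, none at 0 in every library, and 3 were tested. In colesevelam against lean miR-142-5p (log2 fold change −1.18 ± 0.36) and miR-150-5p (−1.27 ± 0.37) were lower and miR-146a-5p was higher (1.15 ± 0.27), with adjusted p of 0.0236, 0.0179 and 0.00322 in edgeR's test. In vehicle against lean 1 of the 3, miR-142-5p, was lower (−1.27 ± 0.36, adjusted p = 0.0328 in edgeR's test). In colesevelam against vehicle miR-146a-5p was higher (1.12 ± 0.27) and miR-150-5p lower (−1.27 ± 0.38), with adjusted p of 0.0114 and 0.0340 in edgeR's test. There miR-142-5p had 0.09 ± 0.37 and was not called. Over all 112 rows the shares called were 21.4% in colesevelam against lean, 6.25% in vehicle against lean and 10.7% in colesevelam against vehicle. The list's summed level was 2346 to 4222 CPM in colesevelam, 1943 to 2766 CPM in vehicle and 2380 to 4558 CPM in lean libraries. The part of leukocytes in the miR-27 values was not tested. miR-142-5p has a GC content of 33.3%, against 52.4% for miR-27a-3p and 47.6% for miR-27b-3p, and the part of GC content in their likeness was not tested either.

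Of the bile duct and other epithelial list, with 5 of 5 names in the table and none at 0 in every library, the summed level was 170 to 225 CPM in colesevelam, 74.5 to 278 CPM in vehicle and 399 to 652 CPM in lean libraries. The obese and lean ranges did not overlap, and the 1 tested name, miR-200b-3p, was lower in colesevelam (−1.68 ± 0.34, adjusted p = 0.00137) and in vehicle (−1.94 ± 0.35, adjusted p = 6.5e-04) than in lean libraries by edgeR's test. Its part in the members' values was not tested. The endothelial list (6 of 10 names in the table, 4 tested) had 1 call, miR-10a-5p, higher in colesevelam than in lean libraries (0.57 ± 0.20, adjusted p = 0.0458 by edgeR's test) and than in vehicle libraries, and its summed ranges overlapped in all groups. No tested name of the stellate cell and fibroblast list (4 tested) or of the erythroid list (1 tested) was called in any comparison. Of the hepatocyte list (6 tested) 1 was, miR-101a-3p, lower in colesevelam than in lean libraries (−0.85 ± 0.29, adjusted p = 0.0380 by edgeR's test). Over all 112 rows 21.4% were called in colesevelam against lean, 6.25% in vehicle against lean and 10.7% in colesevelam against vehicle. The endothelial and hepatocyte calls against lean libraries, 1 of 4 and 1 of 6, lie near the share of all rows.

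Other miRNAs linked to lipid and sterol handling were counted beside the miR-27 forms. Over all 112 rows, 10.7% were called in colesevelam against vehicle, 21.4% in colesevelam against lean and 6.25% in vehicle against lean. Of 8 tested in colesevelam against vehicle, 2 were called, both higher, namely miR-182 (2.36 ± 0.19) and miR-183-5p (2.57 ± 0.29), which come from one cluster linked to sterol regulation. In colesevelam against lean 3 were higher and 1, miR-30c-5p, lower (−0.91 ± 0.20, adjusted p = 0.0020 by edgeR's test). In vehicle against lean miR-378a-3p was higher (0.80 ± 0.21, adjusted p = 0.0198) and miR-182 lower (−0.88 ± 0.19, adjusted p = 0.0036). The list's median log2 fold change was 0.05, −0.32 and 0.06 in colesevelam against vehicle, vehicle against lean and colesevelam against lean, while over all 112 rows it was −0.01, 0.01 and −0.08.

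Other pairs of close paralogs from separate genes give a setting for the family's paralogs. Of 15 such miRNAs tested, 5 were higher and 1 lower in colesevelam against vehicle, 5 were higher in colesevelam against lean, and none was called in vehicle against lean. Over all 112 rows the shares called were 10.7% in colesevelam against vehicle, 21.4% in colesevelam against lean (11.6% higher) and 6.25% in vehicle against lean. Among them miR-99a-5p (1.02 ± 0.25) and miR-99b-5p (0.99 ± 0.30) both rose in colesevelam against vehicle, as did miR-146a-5p (1.12 ± 0.27) and miR-146b-5p (1.27 ± 0.29), with adjusted p of 0.0114, 0.0340, 0.0114 and 0.0088 by edgeR's test. In some other pairs only 1 paralog was called in that comparison, with the same sign in both, and these paralogs were not tested against each other. miR-10a-5p rose (0.77 ± 0.20, adjusted p = 0.0154 in edgeR's test), while miR-10b-5p had 0.53 ± 0.41 (adjusted p = 0.543). miR-30d-5p fell (−0.59 ± 0.18, adjusted p = 0.0340 in edgeR's test), while miR-30a-5p had −0.0043 ± 0.18. These 4 were named after their values were seen, and the remaining 7 miRNAs of the list were not called there.

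The 5′ arms of the hairpins are made from the same precursors and were scarce, and none was tested. They matter for miR-24, because its main arm is the same from both clusters while the 5′ arms differ after their first 16 bases. Both are shown with the seed in capitals.
miR-24-1-5p: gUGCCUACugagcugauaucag
miR-24-2-5p: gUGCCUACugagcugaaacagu
miR-24-2-5p, from the a cluster, had 15 counts over the colesevelam libraries, 8 over the vehicle libraries and 92 over the lean libraries. miR-24-1-5p, from the b cluster, had 0, 0 and 3 counts. A count of 0 over a group allowed up to 7.54 CPM in colesevelam and 7.52 CPM in vehicle libraries (3 counts of the summed total, for counting error only). In lean libraries, which were deeper, miR-24-2-5p had 26.3, 42.8 and 106 CPM as lowest, median and highest. The b cluster held the abundant forms of miR-23 and miR-27, yet the 5′ arm of its miR-24 hairpin was at 3 counts in all, against 115 for that of the a cluster.

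For miR-27 and miR-23 the 5′ arm of the b cluster had the more counts, the same order as for their main arms. miR-27b-5p had 13, 10 and 52 counts and miR-23b-5p 2, 4 and 2 in colesevelam, vehicle and lean libraries. From the a cluster miR-27a-5p had 1, 3 and 12 counts and miR-23a-5p 0, 0 and 2. These counts are too few for a comparison between groups at this depth.

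The deposited comparisons of the authors place all 5 members differently, since they rest on another scaling of the libraries. The size factors recovered from them ran from 0.712 to 1.38 in colesevelam against lean and from 0.752 to 1.24 in vehicle against lean. Library totals averaged 66279.5 counts in colesevelam, 66503.5 in vehicle and 328767 in lean libraries. Such factors leave most of this difference in depth in the counts, though its part in the authors' values was not tested. In the authors' deposited table the colesevelam against lean log2 fold changes were −1.97 for miR-23a-3p, −2.01 for miR-23b-3p, −3.47 for miR-27a-3p, −3.22 for miR-27b-3p and −1.95 for miR-24-3p, with adjusted p from 9.3e-08 to 0.00051. For vehicle against lean the authors' deposited table gives −1.77, −1.64, −2.96, −2.73 and −2.15 in the same order. The median over all rows with a value in the authors' deposited table was −2.87 in colesevelam against lean, where 100% of 182 rows were below 0, and −2.41 in vehicle against lean, where 98.9% of 183 rows were. In colesevelam against vehicle the adjusted p of the members in the authors' deposited table ran from 0.658 to 0.899. For 5′ arms against lean libraries the authors' deposited table gives −3.02 in colesevelam and −3.71 in vehicle for miR-24-2-5p, and −2.39 and −2.58 for miR-27b-5p.

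With the authors' size factors, recovered from their mean scaled counts, put into edgeR, the median of all 112 rows was −2.76 in colesevelam against lean, −2.38 in vehicle against lean and −0.36 in colesevelam against vehicle. Relative to that median, the colesevelam against lean values were 0.79 for miR-23a-3p, 0.75 for miR-23b-3p, 0.81 for miR-24-3p, −0.71 for miR-27a-3p and −0.47 for miR-27b-3p. Under the authors' scaling, which kept most of the depth difference, the absolute direction of the miR-23 forms and miR-24-3p against lean libraries thus flips. Their place above the median of all rows, with the miR-27 forms below it, was the same. A change of scaling moves all rows of a comparison nearly alike, so this place was largely fixed in advance and is no separate evidence.

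**Figure D5:**
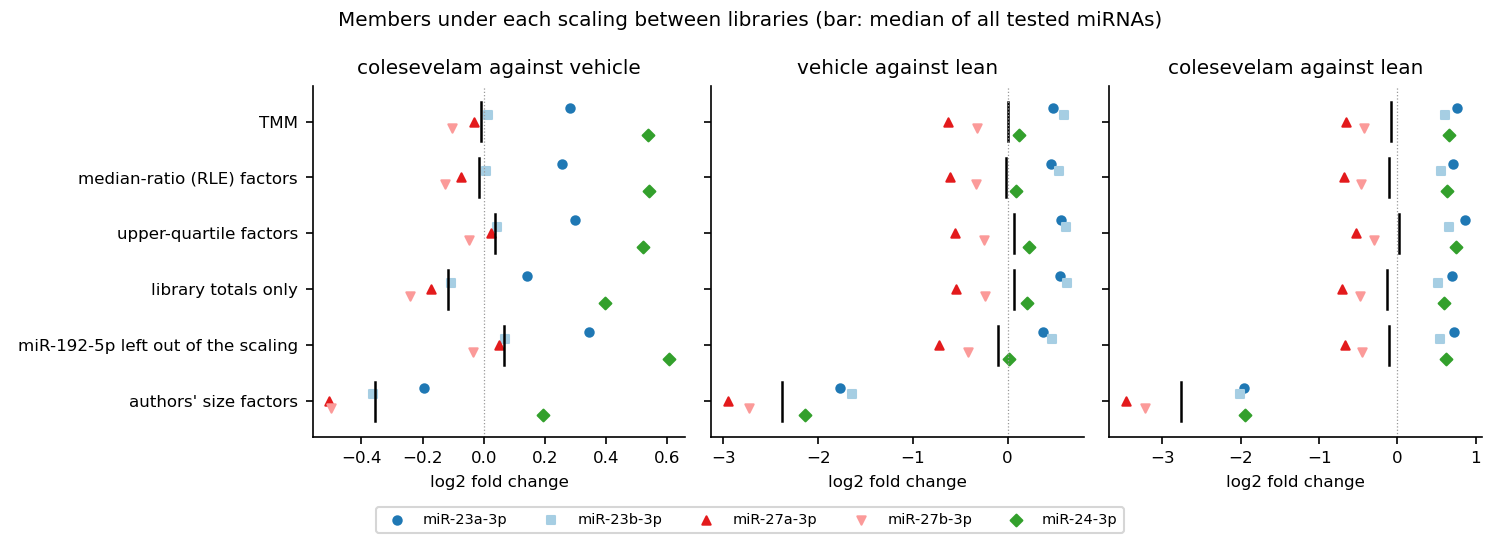
Log2 fold changes of the 5 members under 6 ways of scaling libraries to one another, one panel for each comparison (each with its own axis), with a black bar at the median of all tested miRNAs. Against lean libraries the miR-23 and miR-24 markers lie right of the bar and the miR-27 markers left of it under each of the 6 scalings. A change of scaling moves markers and bar nearly together, so this order could hardly change. With the authors' size factors the bar itself lies at −2.38 (vehicle against lean) and −2.76 (colesevelam against lean).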

How the data were processed

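The one table deposited by the authors has 401 rows, 1 per mature miRNA, with estimated counts that are not scaled between libraries; 297 of 7218 values were not whole. Per the labels' protocols, total RNA from flash-frozen liver (Norgen kit) went into libraries with an Illumina TruSeq RNA kit; they do not describe a selection of small RNA. Bowtie 1.1.2 and DESeq2 1.18.1 were used, per the submitters' processing notes. Not given in the sources used here are the build, the annotation, the counting tool and the handling of reads with several matches. Alongside the counts the table has, per the file headers, DESeq2 log2 fold changes of the authors, p-values (raw and adjusted) and mean scaled counts (a score per row, averaged over the libraries of a comparison), from which their size factors were recovered.

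Counts were rounded. filterByExpr by group (minimum count 10, minimum total 15) left 112 rows with 99.5% of the counts. TMM scaling and edgeR 4.0.16 (R 4.3.3, robust quasi-likelihood test, one fit over 18 libraries, no covariate) gave fold changes, with Benjamini-Hochberg adjustment over all 112 rows at 0.05. The edgeR fit was tried on simulated counts, read for vehicle against lean only, and the other steps were not. CPM are TMM-scaled, given as mean ± SD or as lowest, median and highest of 6 libraries. Ratios within a library were tested by exact permutation (two-sided, 12 libraries), adjusted over 24 tests. The correlations are descriptions. No 2 libraries of a group agreed within sampling noise. Alternatives were other scalings, filters and tools (DESeq2 1.42.0, limma 3.58.1), a replicate block, a GC trend, summed paralogs, summed libraries of one label number, each library left out and the 2 deepest left out.

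The members, the lists and the tests were chosen with earlier results of these data known. Named were the 5 members, the 5′ arms, the 3 tested miRNAs most alike each member, and at most 4 of each list, called ones first. Sequences and positions are RefSeq's on GRCr8; the table's own coordinates belong to another build and were not used.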

Additional observations from a re-analysis of the deposited data

Results flagged for a closer look

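One value stood apart in its group. For miR-27a-3p, colesevelam 5 had 474 CPM, while the other 5 colesevelam libraries lay between 226 and 311 CPM. It was the 1 set apart of 39 groups of values examined for a library far from the others, a test that flags about 1 in 20 groups by chance. The same library, with 20375 CPM, also had the most miR-27b-3p of its group, and it was the deepest colesevelam library, with 122881 counts.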

How the results depend on the processing

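Depth limited the obese groups most, where miR-27a-3p rested on 8.5 to 47.5 counts per colesevelam library and 5.5 to 74.5 per vehicle library. Beside leaving out single libraries, 15 alternatives were run for each member and each count of calls, and 6 for each ratio: the replicate block, label numbers summed, the 2 deepest libraries left out, the GC trend, 5 counts added and none added. Among these, member and ratio values not given here kept their direction and their side of the threshold. With the authors' size factors, miR-23a-3p, miR-23b-3p and miR-24-3p had log2 fold changes of −1.96, −2.01 and −1.95 in colesevelam against lean and −1.77, −1.64 and −2.14 in vehicle against lean. miR-27a-3p and miR-27b-3p had −3.46 and −3.22, and −2.96 and −2.73, in the same comparisons. In colesevelam against vehicle miR-23a-3p and miR-23b-3p had −0.20 and −0.36. Called rows then numbered 110 in vehicle against lean and 109 in colesevelam against lean, by construction of a scaling that moves the median of all rows. In colesevelam against vehicle they numbered 2, where 12 were reported, and the cause of this drop was not tested.

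In colesevelam against lean the miR-23a-3p value was 0.69 with library totals only, 0.69 with no filter, 0.70 with only the 2 groups, 0.70 with the replicate block, 0.83 with label numbers summed, 0.49 with paralogs summed and 0.67 without the 2 deepest libraries, none past the threshold. The miR-23b-3p value was 0.66 with upper-quartile factors, 0.52 with library totals only, 0.54 with miR-192-5p left out of the scaling, 0.53 with no filter, 0.52 with only the 2 groups, 0.55 with label numbers summed, 0.49 with paralogs summed and 0.39 without the 2 deepest libraries, none past it. Newly past it were miR-27a-3p at −0.71 and miR-27b-3p at −0.48 with library totals only, miR-27b-3p at −0.46 with DESeq2, and the miR-27 pair at −0.55 with paralogs summed. The cause was not tested.

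Values near 0 changed sign. In colesevelam against vehicle miR-23b-3p was −0.11 with library totals only, −0.0068 with no filter and −0.050 with only the 2 groups, and the miR-23 pair was −0.067 with paralogs summed. There miR-27a-3p was 0.023 with upper-quartile factors, 0.050 with miR-192-5p left out of the scaling, 0.087 with a filter of 50 CPM, 0.0027 with limma-voom, 0.0042 with the replicate block and 0.074 with the GC trend, and miR-27b-3p was 0.019 with a filter of 50 CPM. In vehicle against lean miR-24-3p was −0.088 with label numbers summed, −0.11 with the GC trend and −0.038 without the 2 deepest libraries. The ratio of miR-23a-3p to miR-23b-3p there was 0.035 without those libraries and 0.024 with 5 counts added. With label numbers summed miR-24-3p to miR-23a-3p was −0.36 and miR-24-3p to miR-23b-3p was −0.16 in colesevelam against lean.

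With 5 counts added, which weigh more in the shallower obese libraries, miR-27a-3p to miR-27b-3p was 0.10 in colesevelam against lean. Past the threshold then were miR-23a-3p to miR-27a-3p at 1.01 in vehicle against lean and at 1.17 in colesevelam against lean. In the last comparison so were miR-23b-3p to miR-27b-3p at 1.09, miR-24-3p to miR-27a-3p at 1.19 and miR-24-3p to miR-27b-3p at 1.28. Called rows in colesevelam against vehicle, 12 as reported, numbered 6 with upper-quartile factors and 7 with no filter, with the replicate block, with label numbers summed and without vehicle 6. In vehicle against lean they numbered 3, against 7, without the 2 deepest libraries.

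Leaving out one library at a time gave, in colesevelam against lean, 0.63 to 0.85 for miR-23a-3p, 0.50 to 0.76 for miR-23b-3p, −0.86 to −0.48 for miR-27a-3p, −0.53 to −0.29 for miR-27b-3p and 0.49 to 0.91 for miR-24-3p. In vehicle against lean it gave 0.44 to 0.75 for miR-23b-3p and −0.056 to 0.37 for miR-24-3p. In colesevelam against vehicle it gave −0.20 to 0.19 for miR-27a-3p, −0.17 to 0.0063 for miR-27b-3p and 7 to 14 called rows. The ratios of miR-23a-3p to miR-27a-3p ran from 0.95 to 1.31 in vehicle against lean and 1.178 to 1.49 in colesevelam against lean, and those of miR-23b-3p to miR-27b-3p from 0.76 to 1.099 and 0.92 to 1.26. In colesevelam against lean miR-24-3p to miR-27a-3p ran from 1.25 to 1.54, miR-24-3p to miR-23a-3p from −0.19 to 0.22, miR-24-3p to miR-23b-3p from −0.078 to 0.28 and miR-23a-3p to miR-23b-3p from −0.032 to 0.18. In colesevelam against vehicle miR-27a-3p to miR-27b-3p ran from −0.017 to 0.29.

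The sample numbers in the labels do not pair libraries. Of 18 same-numbered pairs of libraries from 2 groups, 6 had deviations from the group means that correlated above 0.1 (all 18: −0.64 to 0.58). In 4 of the 18 pairs the library of one group correlated best with its own number among the 6 of the other group. The replicate block moved called rows to 7, 6 and 20 in colesevelam against vehicle, vehicle against lean and colesevelam against lean, where 12, 7 and 24 were reported.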
